A study of Rattus norvegicus with 16 samples.

Results

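The NR4A orphan nuclear receptors Nr4a1, Nr4a2 and Nr4a3 were followed in rat ovary by gene symbol in the deposited expression table, where they are 3 of 22663 genes, and by the same gene in the deposited lists of m6A peaks. They had been chosen by their FPKM values in the input libraries, which were higher after VCD (4-vinylcyclohexene diepoxide, a chemical known to be toxic to primordial and primary follicles). Their difference between the groups is therefore given as a description, without a test. Ovaries of 4 rats labelled CON and 4 rats labelled VCD each gave an input library of fragmented poly(A) RNA and an immunoprecipitation (IP) library enriched for N6-methyladenosine (m6A, a methylated base of mRNA), which makes 16 libraries. Strain, age, dose, duration and the control agent are unknown, as the labels do not give them. The series text speaks of mice, whereas the organism label and the gene identifiers are those of rat.

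NR4A proteins bind DNA as monomers at the NGFI-B response element (NBRE) or as dimers, and Nr4a1 and Nr4a2 can also pair with the retinoid X receptors. They act without a known hormone ligand, so their activity is set largely by how much is made and by phosphorylation. Their genes are immediate-early genes, switched on by cAMP, calcium and growth factor signals without new protein synthesis. In the ovary they are known to respond to the luteinizing hormone (LH) surge and to prostaglandin F2α, and in steroid-making cells to act on genes of steroid synthesis.

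The 250 bases before and 50 after an annotated start of Nr4a1 and Nr4a2 are shown because CREB, the transcription factor activated by cAMP, is known to bind such promoters, and because both transcripts differed between the groups. The sequences come from the RefSeq promoter table of build GRCr8, Nr4a1 at chr7:134259888-134260187 on the plus strand and Nr4a2 at chr3:62104838-62105137 on the minus strand. Capitals mark the short core of the cAMP response element (CRE), TGACG or its reverse complement CGTCA.
Nr4a1: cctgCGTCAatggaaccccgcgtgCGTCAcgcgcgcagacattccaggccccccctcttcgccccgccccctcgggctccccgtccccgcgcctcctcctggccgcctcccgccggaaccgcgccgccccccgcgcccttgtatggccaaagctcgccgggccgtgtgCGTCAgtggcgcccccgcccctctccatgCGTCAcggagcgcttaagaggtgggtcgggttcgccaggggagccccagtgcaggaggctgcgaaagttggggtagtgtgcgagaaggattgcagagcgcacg
Nr4a2: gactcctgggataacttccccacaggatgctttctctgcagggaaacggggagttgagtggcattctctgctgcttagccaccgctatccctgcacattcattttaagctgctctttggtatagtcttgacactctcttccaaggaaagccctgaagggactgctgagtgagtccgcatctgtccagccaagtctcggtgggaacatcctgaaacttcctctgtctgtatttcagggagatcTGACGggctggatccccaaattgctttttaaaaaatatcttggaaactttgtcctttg
The Nr4a1 window held 4 cores and the Nr4a2 window 1. The full element TGACGTCA, which contains the core on each strand, was in neither window, nor was the NBRE AAAGGTCA. All motifs were searched on both strands. Among 27457 promoter windows of the same length, 22.0% held a core, 0.255% held 4 or more, 1.91% held the full element and 1.29% the NBRE. The core contains CG, so base composition bears on its count. GC content was 72.3% for Nr4a1 and 48.7% for Nr4a2, against a median of 52.3% over all windows. Nr4a3 was not in that table.

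Nr4a1 (Nur77, ENSRNOG00000007607), the most abundant of the family, encodes the receptor best known from steroid-making cells and lymphocytes. The file places the gene on chromosome 7 from 142905758 to 142920216, plus strand, with 2 transcripts summed. The sources used here do not state the genome build of the file. CON libraries 1 to 4 held 49.6, 60.6, 55.5 and 45.7 FPKM (fragments scaled to transcript length and library size), and VCD libraries 1 to 4 held 249, 128, 71.6 and 171 FPKM. All VCD libraries lay above all CON libraries, VCD 3 closest to them and VCD 1 farthest away. The group means were 52.8 ± 6.54 in CON and 155 ± 74.9 FPKM in VCD (mean ± SD, n = 4 rats each). On the log2(FPKM + 1) scale the difference was 1.40 ± 0.32 (SE from the limma fit across all genes), and it lay between 1.13 and 1.73 when any 1 library was left out.

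Nr4a2 (Nurr1, ENSRNOG00000005600), best known as a factor of dopamine neurons, lies on chromosome 3 from 43111240 to 43119159, minus strand, in the file. CON libraries 1 to 4 held 3.12, 3.35, 3.81 and 2.42 FPKM, and VCD libraries 1 to 4 held 13.3, 7.13, 3.24 and 11.1 FPKM. The groups overlapped. VCD 3 fell within the CON range, while the other VCD libraries exceeded every CON library. The means were 3.17 ± 0.582 in CON and 8.68 ± 4.44 FPKM in VCD (mean ± SD, n = 4 rats each). The log2 difference was 1.08 ± 0.33 (SE), and it ranged from 0.85 without VCD 1 to 1.43 without VCD 3.

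Nr4a3 (NOR-1, ENSRNOG00000005964), the receptor known not to pair with retinoid X receptors, lies on chromosome 5 from 63781801 to 63821637, plus strand. CON libraries 1 to 4 held 1.28, 0.697, 0.965 and 0.751 FPKM, and VCD libraries 1 to 4 held 3.47, 4.30, 5.04 and 2.88 FPKM. The groups did not overlap, and here VCD 3 was the highest library. The means were 0.923 ± 0.265 in CON and 3.92 ± 0.946 FPKM in VCD (mean ± SD, n = 4 rats each). The log2 difference was 1.34 ± 0.16 (SE), with 1.24 to 1.45 when any 1 library was left out. The authors' deposited table gives a ratio of means of 2.93 for Nr4a1, 2.74 for Nr4a2 and 4.25 for Nr4a3. Groups that do not overlap, higher in VCD, were found in 2.27% of the 14978 genes that averaged 0.5 FPKM or more. Nothing is read from this share for Nr4a1 and Nr4a3, which were picked for their rise.

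**Figure D1:**
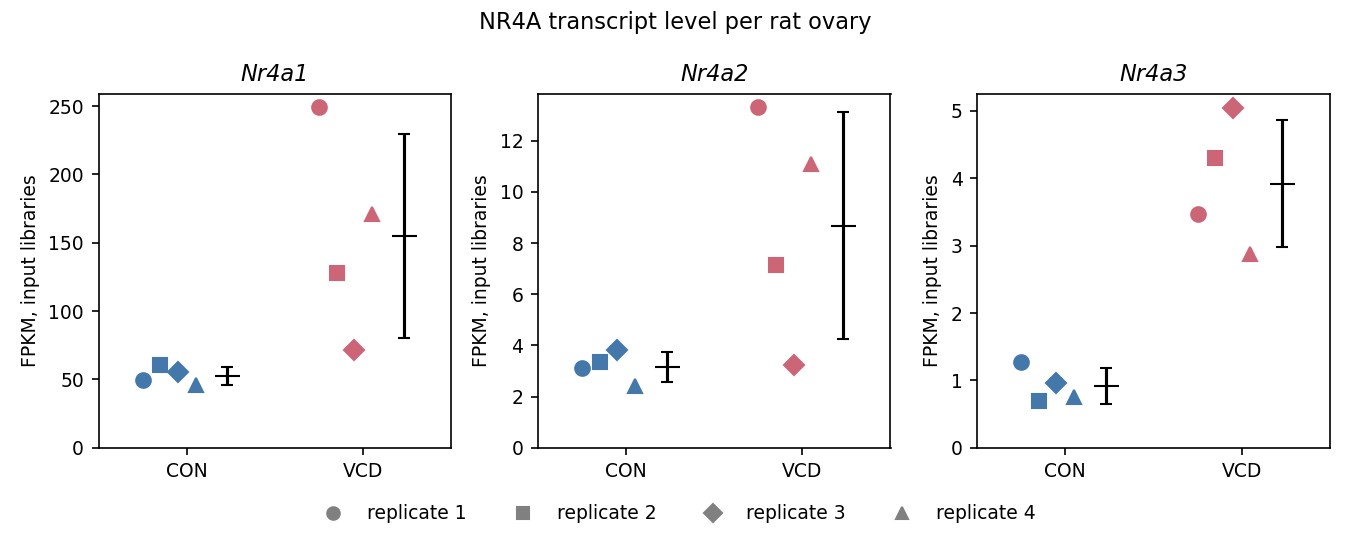
Level in FPKM (y axis, from 0) of Nr4a1, Nr4a2 and Nr4a3 in the 4 CON and 4 VCD input libraries, with 1 symbol per replicate number and the group mean ± SD in black. VCD 3 (diamond) is the lowest VCD library for Nr4a1 (71.6 FPKM) and Nr4a2 (3.24 FPKM) and the highest for Nr4a3 (5.04 FPKM).

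FPKM is a level per transcript length, so the members can be set against each other. Nr4a1 made up 89.6% to 93.7% of the summed NR4A level in every library. The sum was 48.9 to 64.6 FPKM over the CON rats and 79.9 to 266 FPKM in VCD. In CON the order was Nr4a1, Nr4a2, Nr4a3, and neighbouring members did not overlap. In VCD the Nr4a2 and Nr4a3 ranges overlapped, and Nr4a3 exceeded Nr4a2 in VCD 3.

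The Nr4a1 to Nr4a2 ratio of levels stayed between 14.5 and 18.9 in CON and between 15.5 and 22.1 in VCD. That of Nr4a2 to Nr4a3 ran from 2.43 to 4.8 in CON and from 0.642 to 3.84 in VCD. Nr4a1 and Nr4a2 thus kept close to 1 ratio from rat to rat, and Nr4a3 did not keep to it. Nr4a1 and Nr4a2 also spread widely among the VCD rats. Their coefficients of variation were 48.3% and 51.1% in VCD against 12.4% and 18.4% in CON, and the median over all tested genes was 14.6% in VCD and 12% in CON. Nr4a3 varied by 28.7% in CON and 24.1% in VCD.

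Likeness of pattern was measured as Pearson's r of log2(FPKM + 1) over the 8 input libraries, among 13674 other genes averaging 1 FPKM or more. The libraries share the treatment, so a difference between the groups alone gives a high r, and the values are a description. Nr4a2 was the closest of all genes to Nr4a1 (r = 0.98), and Nr4a1 the closest to Nr4a2. Next to Nr4a1 came Ccn1, a secreted matrix protein of the immediate-early class (r = 0.97), and Mthfsd (0.95). Next to Nr4a2 came Ppp1r15a, a phosphatase subunit of the stress response (0.97), and Dmap1 (0.97). Closest to Nr4a3 were Ints3, of the Integrator complex (0.98), Ostf1 (0.95) and Arrdc3, an arrestin-domain gene (0.94). Nr4a1 stood at rank 332 and Nr4a2 at rank 725 of the genes ordered by likeness to Nr4a3.

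Ccn1 held 11.1, 15.0, 23.8 and 16.7 FPKM in CON 1 to 4 and 106, 50.8, 27.8 and 76.2 FPKM in VCD 1 to 4. All VCD libraries exceeded all CON libraries, in the same order as for Nr4a1 (log2 change 1.79). Arrdc3 had a log2 change of 0.83. Both genes were named for a likeness that takes in the group difference and the library order, so no test of that difference is given. With each library taken as its deviation from its group mean, r was 0.97 between Nr4a1 and Nr4a2, -0.68 between Nr4a1 and Nr4a3 and -0.67 between Nr4a2 and Nr4a3. Highest by that measure stood Shld1 of the shieldin complex, Pacs1 and Nr0b1 for Nr4a1 (each 0.99). For Nr4a2 they were the unnamed locus AABR07063281.1 (0.99), RGD1565844 (0.98) and Shld1 (0.98). For Nr4a3 they were Morc4, Bach1, a repressor of heme and antioxidant genes, and Dnhd1 (each 0.98).

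Nr0b1 (DAX1), a nuclear receptor that represses steroidogenic genes, held 2.78, 3.91, 4.19 and 2.36 FPKM in CON 1 to 4 and 6.23, 2.54, 0.551 and 3.48 FPKM in VCD 1 to 4. Its VCD libraries followed the Nr4a1 order, which comes from its being named for likeness to Nr4a1 within the groups. VCD 1 lay above and VCD 3 below every CON library, and the group difference did not pass (log2 change -0.22, limma adjusted p = 0.806).

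The immediate-early genes, the class to which the NR4A genes belong, were described from a list of 36, of which 35 were tested. In the limma fit across all genes 2 rose in VCD and none fell, where of all tested genes 0.447% passed, 0.107% higher and 0.340% lower. An unadjusted p under 0.05 was found for 13, 12 higher and 1 lower, against 18.7% of all tested genes, 4.12% higher and 14.6% lower. The authors' deposited table gives 9 a q-value under 0.05, all higher, against 6.02% of all tested genes, 2.56% higher and 3.45% lower. The median log2 change of the list was 0.40, against -0.06 over all tested genes, and 32 of 35 were higher in value. Errfi1, which restrains signalling by the EGF receptor, had a log2 change of 1.42 ± 0.14 SE, and Per1, a clock gene that CREB induces, of 0.79 ± 0.08 SE (limma adjusted p = 0.00493 for both). When VCD 2 and VCD 4, which held the most ribosomal RNA, were left out, the Per1 log2 change was 0.78 (limma adjusted p = 0.103). In that smaller fit 7 of all tested genes passed, against 67 with every library.

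Errfi1 was lowest among VCD libraries in VCD 4 (43.5 FPKM) and Per1 in VCD 2 (38.1 FPKM). Csrnp1, a nuclear protein induced by growth signals, held 8.85, 6.87, 5.39 and 5.4 FPKM in CON 1 to 4 and 24.3, 11.5, 10 and 21.6 FPKM in VCD 1 to 4. Maff, a small MAF factor, held 2.95 to 4.21 FPKM over the CON rats and 7.20, 4.52, 4.61 and 6.20 FPKM in VCD 1 to 4. In neither gene did the groups overlap, yet neither passed (limma adjusted p = 0.0964 and 0.130).

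The order of VCD libraries seen for Nr4a1 and Nr4a2, with VCD 1 and VCD 4 the 2 highest, held in 28 of the 35 immediate-early genes, against 25.3% of all tested genes. VCD 3 was the lowest VCD library in 22 of the 35 (32.4% of all tested genes) and the highest in 1, as it was for Nr4a3 (21.7% of all tested genes). Over the 33 members at 1 FPKM or more, the median r of deviations from group means was 0.65 with Nr4a1, 0.73 with Nr4a2 and -0.42 with Nr4a3, where all genes had medians of 0.15, 0.16 and -0.02. Fos, of the AP-1 factor, chosen after its values were seen, held 30.2, 31.0, 47.9 and 19.3 FPKM in CON 1 to 4 and 121, 41.9, 11.7 and 161 FPKM in VCD 1 to 4. VCD 3 lay below every CON library, so the groups overlapped (limma adjusted p = 0.540). In most of these genes the rats VCD 1 and VCD 4 thus stood highest among the VCD rats. VCD 3 was often the lowest of them. It still lay above every CON library in some genes, such as Errfi1 (55 FPKM) and Per1 (38.6 FPKM), and below every one in others, such as Fos.

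**Figure D2:**
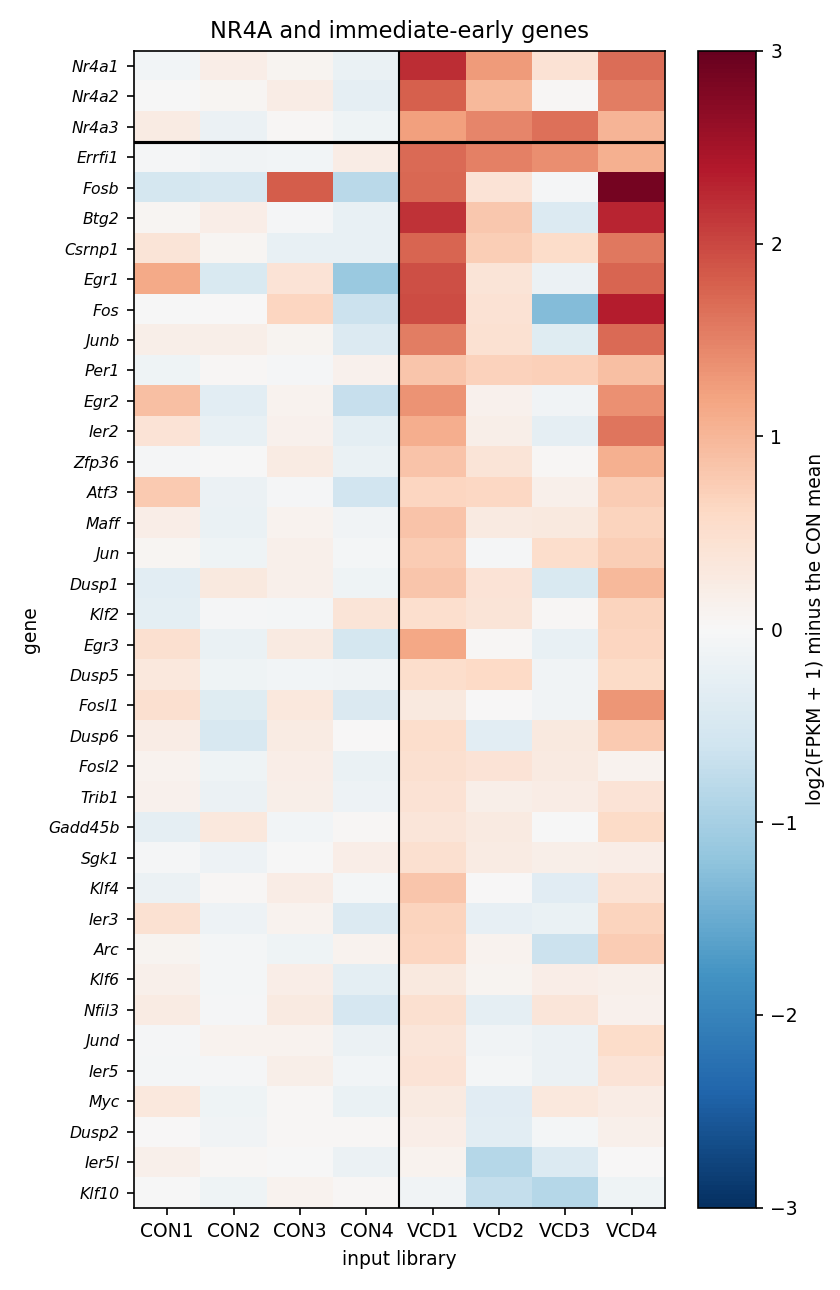
Level of Nr4a1, Nr4a2, Nr4a3 (top) and 35 immediate-early genes in each input library, as log2(FPKM + 1) minus the mean of the 4 CON libraries (red higher, blue lower). Columns VCD 1 and VCD 4 are the 2 highest VCD libraries in 28 of the 35 genes, whereas Nr4a3 is highest in VCD 3.

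Against the rest of their superfamily the NR4A genes were set through a list of the other nuclear receptors, 34 of 45 tested. None of the 34 passed the limma test across all genes, where 0.447% of all tested genes passed. An unadjusted p under 0.05 was found for 7, 2 higher and 5 lower, and the authors' deposited table gives 2 a q-value under 0.05. Over all tested genes 18.7% had such a p, 4.12% higher and 14.6% lower, and 6.02% such a q-value. The share of receptors with such a p was thus near that of all genes. Their median log2 change was -0.09, with 12 higher and 22 lower in value. The 3 NR4A values, chosen for their rise, were the highest of the 37 receptors. Nr1d1 (REV-ERBα), a repressor of the circadian clock, came next, with 28.3 ± 11.1 in CON and 58.1 ± 13.9 FPKM in VCD (mean ± SD, n = 4 rats each; log2 change 1.07, limma adjusted p = 0.109). Its groups did not overlap, and VCD 3 was its lowest VCD library at 42.4 FPKM.

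Nr1d2, its paralog, had a log2 change of 0.49 (limma adjusted p = 0.150) and Ppard, a receptor of fatty acids, of 0.28 (0.340). The limma adjusted p of Nr1d2 was 0.0499 without VCD 3 and 0.145 to 0.332 without any other library. On the lower side stood Nr5a2 (LRH-1), needed in granulosa cells for ovulation, with a log2 change of -0.75, and Nr0b2, a repressor of other receptors, with -0.52 (limma adjusted p = 0.268 and 0.110). Thra, a thyroid hormone receptor, had the smallest p of the list, at 33.4 ± 2.97 in CON and 26.7 ± 1.39 FPKM in VCD (log2 change -0.31, limma adjusted p = 0.108). The Nr0b2 and Thra groups did not overlap, which was so for 9.58% of all tested genes on the lower side.

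**Figure D3:**
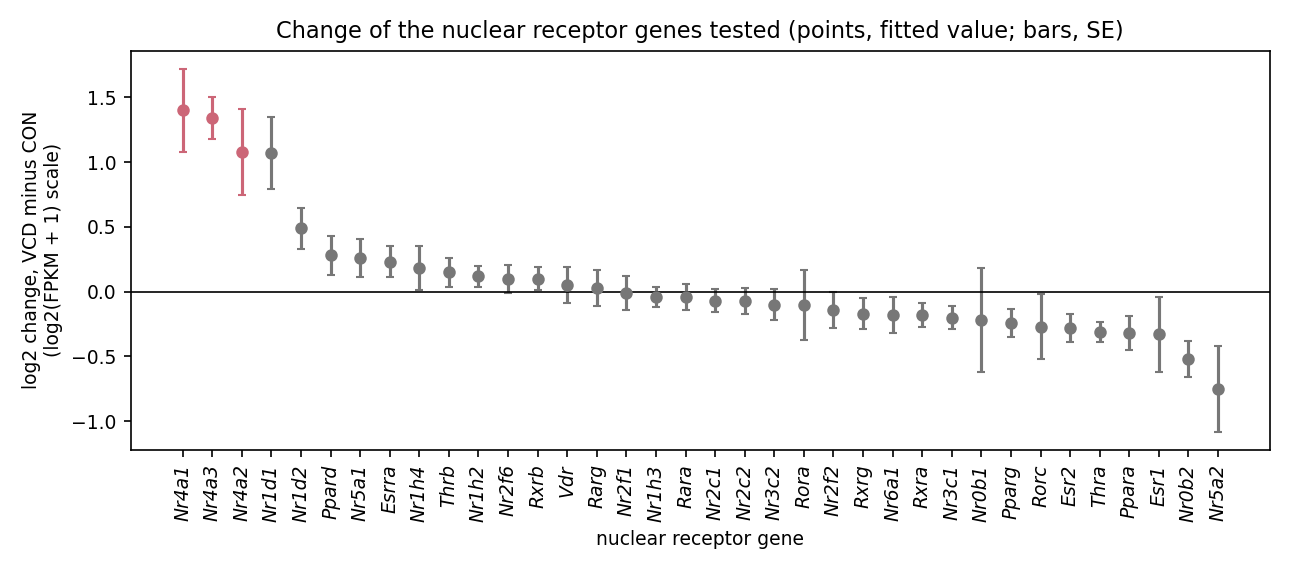
Fitted log2 change, VCD minus CON, on the log2(FPKM + 1) scale (y axis) of 36 nuclear receptor genes, ordered by value, with SE bars. Nr4a1, Nr4a3 and Nr4a2 (red) lie at 1.40, 1.34 and 1.08, Nr1d1 at 1.07, and the other receptors between -0.75 and 0.49.

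The route from LH through cAMP to the NR4A genes was covered by 28 genes, from receptors and cyclases to CREB and MEF2, all tested. None passed the limma test across all genes, where 0.447% of all tested genes passed, while 8 had an unadjusted p under 0.05, 4 in each direction. Of all tested genes 18.7% had such a p, 4.12% higher and 14.6% lower. The authors' deposited table gives 3 a q-value under 0.05, 2 higher and 1 lower, beside 6.02% of all tested genes, 2.56% higher and 3.45% lower. The median log2 change was -0.02. Crem, whose short form is a cAMP-induced repressor of CREB targets, held 6.68 to 7.57 FPKM over the CON rats and 13.8, 8.54, 12.1 and 10.1 FPKM in VCD 1 to 4 (limma adjusted p = 0.0901), without overlap. Adcy9, an adenylyl cyclase, held 33.1 to 48.1 FPKM over the CON rats and 49.2 to 58.2 FPKM in VCD (limma adjusted p = 0.0945). CON 4 was the highest CON library for Adcy9, and without it the gene passed (limma adjusted p = 0.0242). Without any other library it did not (limma adjusted p of 0.118 to 0.247). Mef2a, a transcription factor of the MEF2 family, had a log2 change of -0.42, and Creb1, which encodes CREB, of -0.46 (limma adjusted p = 0.0939 and 0.156). Lhcgr, the LH receptor, outside the rule for named genes and chosen after its values were seen, ranged from 58.5 to 367 FPKM over the CON rats and from 76.6 to 419 FPKM in VCD. Its highest libraries were CON 4 and VCD 2. Whether the level of Lhcgr bears on the NR4A values was not tested.

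Partners and coregulators, which pair with NR4A proteins or modify their activity, numbered 17, all tested. None passed the limma test across all genes, where 0.447% of all tested genes passed, and 3 had an unadjusted p under 0.05, all lower in VCD. Of all tested genes 18.7% had such a p, 4.12% higher and 14.6% lower, and the share of the list was near the latter. Their median log2 change was -0.13, with 3 higher and 14 lower in value. The authors' deposited table gives none a q-value under 0.05, against 6.02% of all tested genes. Rcor1, of the CoREST repressor complex, had a log2 change of -0.21, Ncor1, a corepressor, of -0.23, Trim28, a corepressor scaffold, of -0.18, and Ncoa1, a coactivator, of -0.23 (limma adjusted p between 0.217 and 0.274).

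Genes that the LH surge induces in the follicle wall numbered 22, with 16 tested. None passed the limma test across all genes, where 0.447% of all tested genes passed, while 6 had an unadjusted p under 0.05, 4 higher and 2 lower. Of all tested genes 18.7% had such a p, 4.12% higher and 14.6% lower. The authors' deposited table gives 4 a q-value under 0.05, 3 higher and 1 lower, against 6.02% of all tested genes, 2.56% higher and 3.45% lower. The median log2 change was 0.21. Ptx3, which holds the cumulus matrix together, held 4.15 to 8.13 FPKM over the CON rats and 1.37 to 3.49 FPKM in VCD (log2 change -1.19, limma adjusted p = 0.0720). The limma adjusted p of Ptx3 was 0.0461 without VCD 1 and 0.0762 to 0.2 without any other library. Adamts1, a protease of ovulation, held 17.3 to 21.3 FPKM over the CON rats and 46.1, 27.3, 25.8 and 22.8 FPKM in VCD 1 to 4 (log2 change 0.62, limma adjusted p = 0.142). Runx2 and Cebpb, factors of the luteinizing follicle, had log2 changes of 0.37 and 0.34 (limma adjusted p = 0.134 and 0.140). Btc, Ptgs2, Has2, Pgr, Sult1e1 and Il6 stayed under a mean of 0.5 FPKM over the 8 libraries and were not tested.

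Steroidogenic and luteal genes reported to respond to NR4A proteins numbered 13, with 10 tested. None passed the limma test across all genes, where 0.447% of all tested genes passed, and 2 had an unadjusted p under 0.05, both higher in VCD. Of all tested genes 18.7% had such a p, 4.12% higher and 14.6% lower. The median log2 change was 0.31. The authors' deposited table gives none a q-value under 0.05, against 6.02% of all tested genes. Cyp19a1, the aromatase, held 9.57, 10.5, 24.3 and 56.3 FPKM in CON 1 to 4 and 124, 58.6, 24.8 and 108 FPKM in VCD 1 to 4, where VCD 1 and VCD 4 were again high and VCD 3 low (limma adjusted p = 0.188). Star, which brings cholesterol into mitochondria, held 3505 ± 1315 in CON and 4783 ± 796 FPKM in VCD, and Scarb1, the receptor for high-density lipoprotein, 2025 ± 435 and 2795 ± 510 FPKM (mean ± SD, n = 4 rats each; limma adjusted p = 0.342 and 0.227). Akr1c18, the luteal enzyme that inactivates progesterone and is known as a target of Nr4a1 in rat, and Hsd3b1 were not analysed here.

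Whole ovary was measured, so more cells of a type and more RNA per cell cannot be told apart. Of the marker lists, oocyte markers (8 genes) summed to 34.2 to 53.6 FPKM over the CON rats and 7.12 to 11.8 FPKM in VCD, and endothelial markers (7 genes) to 114 to 152 and 155 to 188 FPKM. Neither sum overlapped between the groups. Granulosa markers (8 genes, Cyp19a1 among them) summed to 712 to 911 FPKM over the CON rats and to 1175, 756, 643 and 1024 FPKM in VCD 1 to 4, in the Nr4a1 order. Theca (2316 to 5250 against 3955 to 5674), luteal (2330 to 4324 against 3369 to 4493), smooth muscle (447 to 611 against 555 to 861), stroma (553 to 774 against 401 to 582), macrophage (223 to 322 against 210 to 244), lymphocyte (50.8 to 72.2 against 43.4 to 53.6), neutrophil and mast cell (8.32 to 9.71 against 5.68 to 19.2) and adipocyte sums (50.1 to 271 against 51.6 to 83.1 FPKM) overlapped. Star made up most of the theca sum in every library, as in CON 1 with 2201 of 2316 FPKM. Cyp11a1, outside the rule for named genes and chosen after its values were seen, likewise made up most of the luteal sum (2211 of 2330 FPKM in CON 1). Both sums therefore say little of the other markers in their lists. No marker in the table was at 0 in every library. Genes typed as ribosomal RNA summed to 8.17 to 25.0 FPKM over the CON rats and 28.6 to 56.9 FPKM in VCD, without overlap and with VCD 2 and VCD 4 highest. Without VCD 2 and VCD 4 the log2 differences were 1.33 for Nr4a1, 0.91 for Nr4a2 and 1.44 for Nr4a3. The part of cell makeup and RNA quality in the NR4A values was not tested.

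Each NR4A transcript carried m6A peaks in both groups, at the start codon and at the stop codon. The mark is laid down by the METTL3 complex, often near stop codons and in long exons, and is known to affect mRNA stability. The authors called peaks once per group, so a peak has no replicate spread, and a peak's bounds may span introns. Peak positions are given counted from 1. Nr4a1 had 2 peaks in each list. In CON the peak over its start codon ran from 142905883 to 142917230 with a log2 enrichment of IP over input of 3.82, and that over its stop codon from 142919457 to 142920216 with 3.75. In VCD the overlapping peaks had 3.91 and 3.90. The start codon peak exceeded 95.0% of the 3073 CON peaks and 94.8% of the 2969 VCD peaks over start codons, and the stop codon peak 76.3% and 78.4% of those over stop codons.

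Nr4a2 had 2 peaks in each list. Its stop codon peak, from 43111815 to 43113112 in CON, carried the strongest enrichment of the family, at a log2 of 4.05 in CON and 4.00 in VCD. Its start codon peak ran from 43116164 to 43117366 in CON (log2 enrichment 3.12) and from 43116089 to 43119159 in VCD (3.53), where it reached the first base of the gene. Nr4a3 had 5 peaks in CON and 2 in VCD. In CON the peaks lay in the 5′ UTR (log2 enrichment 2.1), over the start codon (2.65), in 2 internal exonic stretches (2.26 and 1.53) and over the stop codon (2.83). In VCD a single peak from 63781801 to 63792594 (2.93) overlapped the first 3 of these, and another from 63807513 to 63821043 (2.83) spanned the stop codon peak. The internal CON peak of lowest enrichment, from 63792595 to 63793164, began on the base after the first VCD peak and had no overlapping peak in the VCD list. Of all 15 NR4A peaks, 14 overlapped a peak of the other list. The lower count in VCD thus came with longer peaks, and with a mean input level of 3.92 FPKM against 0.923 FPKM in CON.

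By the strongest peak per gene, Nr4a2 exceeded 87.0% of 13150 genes with a peak in CON, Nr4a1 80.6% and Nr4a3 49.1%. In VCD the shares were 83.4%, 80.8% and 49.5% of 12841 genes. Among the nuclear receptors with a peak, Nr4a2 stood at rank 4 of 34 in both lists, behind Nr2f2, Rora and Nr2f1. Nr4a1 stood at rank 7 in CON and 6 in VCD, and Nr4a3 at rank 17 and 19. The order of enrichment, Nr4a2, Nr4a1, Nr4a3, differed from the order of transcript level.

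**Figure D4:**
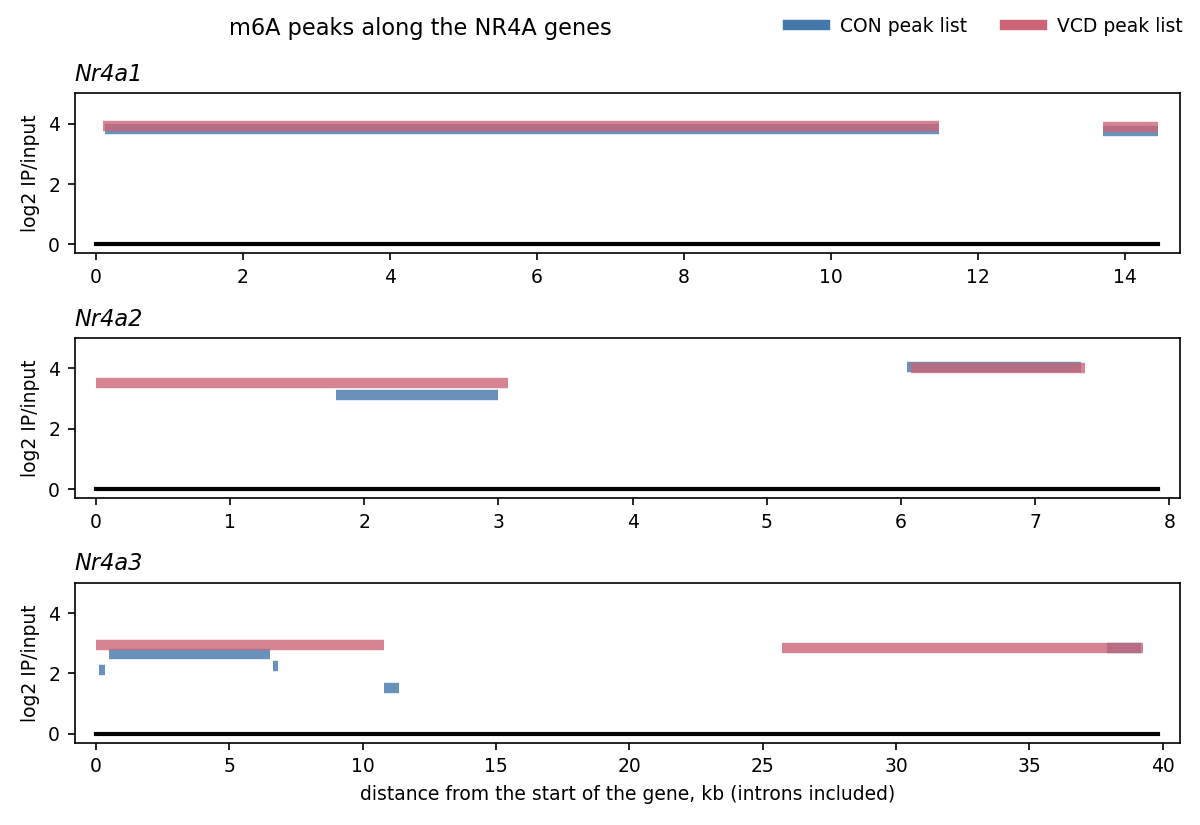
m6A peaks of the CON (blue) and VCD (red) lists along each NR4A gene, in kb from the gene's start with introns included (x axis), at the height of their log2 enrichment of IP over input (y axis). The black line is the gene, and the Nr4a3 panel shows 5 CON peaks against 2 longer VCD peaks.

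In the authors' deposited table of m6A differences between VCD and CON, 3 NR4A peaks were listed, all higher in VCD. The enrichment is IP over input, so it shares the input libraries with the values by which the genes were picked. The Nr4a2 start codon peak had a log2 enrichment of 3.52 in VCD and 3.13 in CON, a difference of 0.39 (adjusted p = 0.0161 in the authors' deposited table). The Nr4a1 stop codon peak differed by 0.15 (3.88 against 3.73, adjusted p = 2.78e-06) and its start codon peak by 0.11 (3.89 against 3.78, adjusted p = 0.000354), again in the authors' deposited table. The Nr4a2 stop codon peak and all Nr4a3 peaks were not listed there.

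The table gave a p-value for 5528 peaks, the highest of them 0.0499, and 82.9% of these were higher in VCD. Of these peaks 43.0% were higher at an adjusted p under 0.05. A higher value in VCD was therefore the usual direction of a listed peak. In size the Nr4a1 differences exceeded only 9.32% and 23.1% of the listed ones, and that of Nr4a2 73.0%. None reached the log2 difference of 1 that the authors' deposited table asks of a significant peak, against 426 peaks that did. As ratios of enrichment the listed differences were 1.08-fold and 1.11-fold for the Nr4a1 peaks and 1.31-fold for the Nr4a2 peak.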

How the data were processed

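Values came from the 8 input libraries, 4 CON and 4 VCD, and from peak tables made with the IP libraries. FPKM per gene, with a fold ratio of means, its log2 value, p-values and q-values, are values of the authors, per the file headers. The peak tables hold the authors' log2 enrichment of IP over input and adjusted p-values, with 1 list per group, per the file headers. The submitters' processing notes name HOMER 4.10, edgeR 4.1, StringTie 2.1.2, HISAT2 2.0.4 and fastp 0.19.4 without roles, and the human build GRCh38, although the identifiers are of rat. Which build the coordinates use is therefore unknown. Low FPKM values showed no common step, so neither depth nor counting error can be given. Of 10 housekeeping genes checked, 0 were listed at 0.

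The 14978 of 22663 genes that averaged 0.5 FPKM or more were fitted on log2(FPKM + 1) by treatment, using lmFit and eBayes (trend on) of limma 3.58.1 under R 4.3.3. Calls were made at a Benjamini-Hochberg adjusted p under 0.05 over all tested genes. Changes on this scale understate those of low genes. A repeated symbol was taken from its row of highest mean. In a check on made-up data for 14978 genes in 4 against 4 libraries, 83 of 100 genes changed by 1 and 100 of 100 changed by 2 on the log2 scale were recovered, and 11 of 194 calls were false. The changed genes had a mean of 2 or more on that scale, and noise was drawn for each gene independently, without shifts shared within a library. These shares hold for that setting and cannot be carried over to the real libraries. Peaks were matched by gene identifier and called overlapping when they shared 1 base or more of a strand (Python 3.11.15). The deposited peak starts count from 0: in the CON and VCD lists 5271 and 5131 peaks began 1 base before their gene, and 0 and 1 on its first base, while ends matched gene ends. Starts were therefore raised by 1. Titles number the rats, and replicates were taken as separate animals.

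The members, the gene lists and the tests were chosen with earlier results of these data known. Named were the members, for each of them the 3 genes of highest r by either measure of likeness, up to 4 genes of smallest p per list, and the 3 largest rises and falls among nuclear receptors, of which 1 gene is not reported here. Gene, peak and marker lists are described by counts and medians, without set tests. Protein sequences and the peaks' own sequences were not analysed here. Alternatives were the pseudocount, the filter, the scaling, the replicate number as a block, leaving out libraries, and stricter peak thresholds.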

Additional observations from a re-analysis of the deposited data

Results flagged for a closer look

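In 84 groups of 4 libraries, those of the named genes, 2 held a library far from the other 3, where chance gives about 1 in 20. For Adcy9 the library CON 4 held 48.1 FPKM, the remaining CON libraries 33.1 to 34.6 FPKM. For Runx2 it held 34.3 FPKM and the remaining ones 32.9 to 33 FPKM, a gap that is large only beside their small spread. No NR4A gene had such a library in either group.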

How the results depend on the processing

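The log2 differences of Nr4a1, Nr4a2 and Nr4a3 kept their direction under each alternative run. Leaving out 1 library gave 1.13 to 1.73, 0.85 to 1.43 and 1.24 to 1.45. With the replicate number as a block they were 1.40, 1.08 and 1.34. Nr4a3, at a low level, moved to 1.98 with a pseudocount of 0.1 and to 2.09 in the authors' deposited table, and it fell under the stricter filter of 5 FPKM on average. Of all tested genes 67 were called, 3 under the stricter filter, 31 with the replicate block, 7 without VCD 2 and VCD 4 (an alternative chosen after seeing the data) and 12 to 115 when 1 library was left out (12 without CON 1, 13 without VCD 4, 22 without CON 3, 23 without CON 2, 29 without VCD 2 and 115 without VCD 3). The authors' deposited table calls 1038, a count not limited to the genes tested here. Among the 14978 tested genes alone, 901 had a q-value under 0.05 in it. Of the genes in the 6 lists 2 were called, 2 to 3 without any 1 library, 1 without VCD 2 and VCD 4, and 18 in the authors' deposited table. Scaling to a common median moved the median change of all genes from -0.06 to 0.02 and the calls to 21 higher of 59, against 16 of 67. The batch label repeats the replicate numbers, and its meaning is not stated. The numbers did not pair the libraries (deviations of same-numbered libraries correlated at -0.0103, -0.0851, 0.00684 and -0.0659). At a reciprocal overlap of 50%, 8 of 15 NR4A peaks matched a peak of the other list, against 14 at 1 base, where the VCD start codon peak of Nr4a2 and both VCD peaks of Nr4a3 were longer than their CON counterparts. Demanding a log2 difference of 1 left 0 of 3 differential NR4A peaks. Depth is unknown, so counting error cannot be given for any member.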
